A study of Mus musculus with 17 samples.

Results

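Cystine uptake and glutathione synthesis, recycling and use were described in mouse splenic cDC1s and cDC2s through 7 genes, Slc7a11, Gclc, Gclm, Gss, Gsr, Gpx1 and Gpx4, out of 31091 genes counted. The genes were chosen by name for the steps their proteins carry out, with their levels in the 6 groups already in view. Their levels and differences are therefore a description, and no p-value is given for them. All of them were far above the limit of detection, with at least 172 reads in every sample, and all passed the filter on low counts in every fit.

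The study asked how dendritic cells respond to apoptotic or necroptotic tumor cell debris. CD11c+ cells were enriched from pooled spleens of C57BL/6JRj mice that carried FLT3L-secreting B16 tumors, cultured for 6 h with GM-CSF and medium from TC-1 cells, a mouse lung epithelial tumor line, and then sorted into cDC1s and cDC2s. The medium came from TC-1 WT cells that stayed alive (WT), from TC-1-iBimS cells dying by apoptosis (BimS) or from TC-1-iRIPK3 cells dying by necroptosis (RIPK3). Polyadenylated RNA of 17 samples was sequenced: 3 per group, and 2 for cDC2s with RIPK3 medium. All TC-1 cells had met the inducer cumate, WT cells included, and each inducible line is derived from a clone. The mice carried FLT3L-secreting tumors and the cells were kept with GM-CSF in all groups, so no group holds cells without these treatments. The labels do not say whether replicates came from separate cultures or animals, so calls measure the spread between these samples only.

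Glutathione is the main soluble thiol antioxidant of the cell, and its synthesis is usually limited by cysteine. System xc-, made of SLC7A11 and the chaperone subunit SLC3A2, imports cystine in exchange for glutamate. Glutamate-cysteine ligase, with the catalytic subunit GCLC and the modifier GCLM, joins cysteine to glutamate, and GSS adds glycine. GPX1 and GPX4 are selenoenzymes that spend glutathione to reduce peroxides, GPX4 those of membrane lipids, which protects from ferroptosis, and GSR returns oxidized glutathione to its reduced form with NADPH. SLC7A11 is a known target of the transcription factors NRF2, which binds antioxidant response elements, and ATF4, which binds amino acid response elements, and both ligase subunits are known targets of NRF2.

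The promoters of Slc7a11 and Gclm are shown because they are the only entries of the 7 genes that held a match to either element. RefSeq promoter entries (GRCm38.p6, from 250 bases before to 50 after the start) were found for 5 of the 7 genes. Gclc and Gsr were not matched. The antioxidant response element core was searched as TGACNNNGC and the amino acid response element as TGATGNAA, on both strands, and no match to one motif overlapped a match to the other in the entries of these genes. The first was found in 4071 of 32851 promoters of this length (12.4%) and the second in 1304 (3.97%). Capitals mark the matches, 5′ to 3′ along each gene.
Slc7a11, chr3:50443564-50443863, minus strand: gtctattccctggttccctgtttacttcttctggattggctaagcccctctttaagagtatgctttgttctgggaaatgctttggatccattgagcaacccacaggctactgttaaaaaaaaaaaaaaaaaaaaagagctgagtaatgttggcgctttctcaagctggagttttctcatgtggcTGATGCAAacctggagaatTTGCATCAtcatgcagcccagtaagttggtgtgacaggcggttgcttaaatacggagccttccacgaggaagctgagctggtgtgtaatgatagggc
Gclm, chr3:122245307-122245606, plus strand: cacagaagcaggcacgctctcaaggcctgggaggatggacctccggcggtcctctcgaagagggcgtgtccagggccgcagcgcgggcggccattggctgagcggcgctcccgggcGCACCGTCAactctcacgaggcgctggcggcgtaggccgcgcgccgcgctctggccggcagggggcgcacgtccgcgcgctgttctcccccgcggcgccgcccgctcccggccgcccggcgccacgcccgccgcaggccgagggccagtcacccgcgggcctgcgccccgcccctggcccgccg
Slc7a11 had 2 matches to TGATGNAA. One, TGATGCAA, lies 66 to 59 bases before the start on the strand of the gene, and the other reads TTGCATCA along the gene, 47 to 40 bases before the start, and is on the opposite strand. Gclm had 1 match to TGACNNNGC, on the opposite strand, 134 to 126 bases before the start. Gss, Gpx1 and the 4 entries of Gpx4 held neither motif. A match is a description of letters, and an absent one says only that these letters are not in this window.

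Levels below are CPM, the reads of a gene per 1 M reads of its sample, with TMM factors computed over all 17 samples. Differences are log2 fold changes from edgeR's quasi-likelihood fit of each cell type, with their standard error (SE) and 95% interval, and a gene is called at an adjusted p threshold of 0.05 over all genes tested. Replicate 3 of cDC2s with WT medium stood apart from its group, with a chi-square per degree of freedom of 36.9 and 16.3 against the other two, where other pairs of a group were at 3.37 to 15.4. It was the lowest of its group for Slc7a11 and the highest for Gclm, Gss, Gsr, Gpx1 and Gpx4. Replicate 3 of cDC2s with BimS medium stood in the same places of its group, and the RIPK3 group of cDC2s has no replicate 3. Between debris and WT medium, 6 of the 7 genes were called in each of the 4 comparisons, 5 higher and Gpx1 lower, and the samples of the groups did not overlap. Over all genes tested, 13.2% were called for BimS and 16.5% for RIPK3 in cDC1s, and 7.01% and 7.21% in cDC2s. The genes were chosen on these contrasts, so nothing is read from that difference. In bulk samples, fewer cells of a type and less RNA per cell cannot be told apart.

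**Figure D1:**
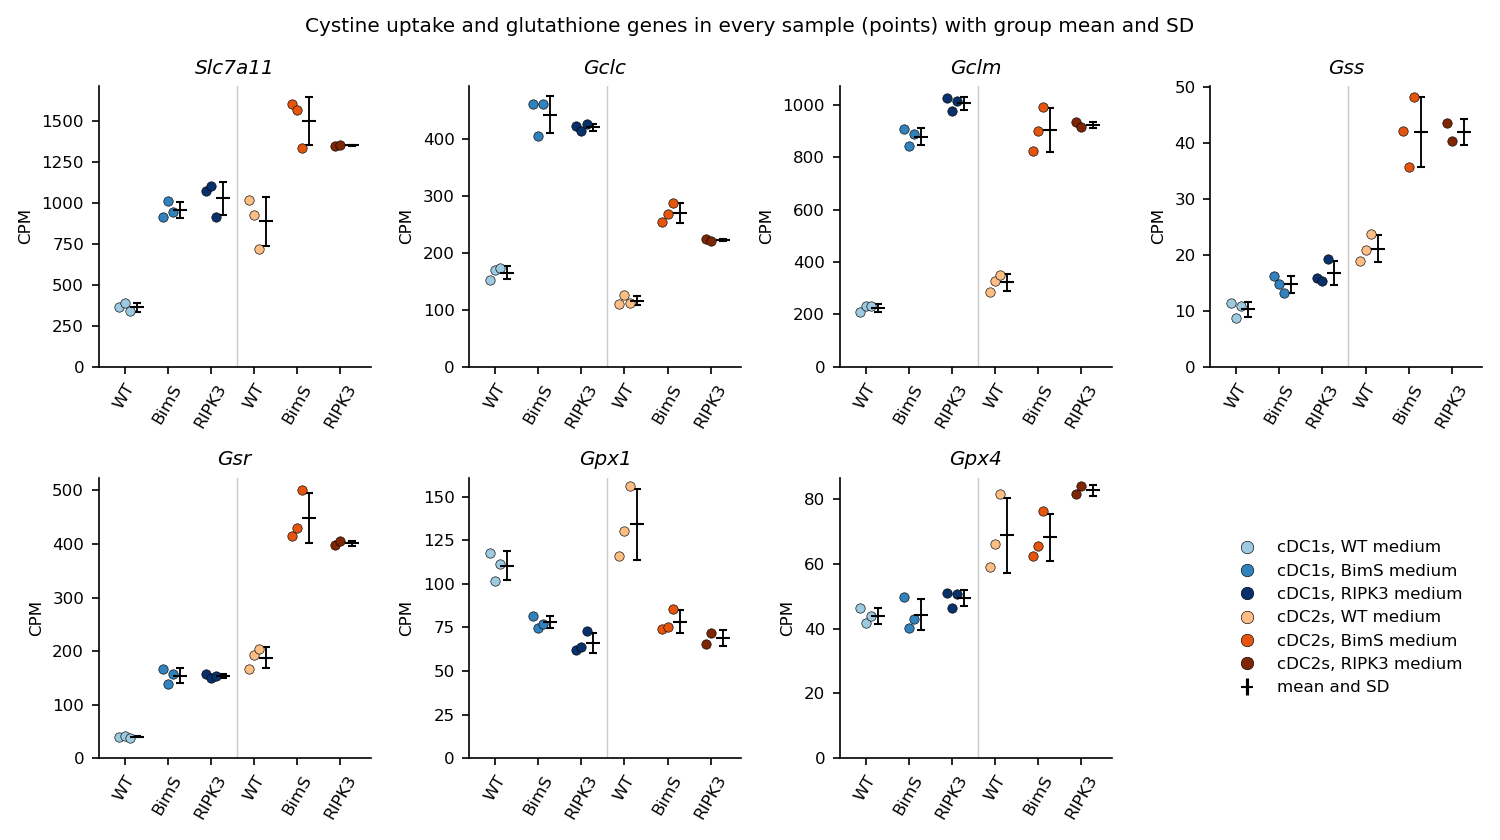
CPM (y axis, linear, from 0) of the 7 genes in every sample, by cell type and medium, with the group mean and SD beside the points. Slc7a11, Gclc, Gclm, Gss and Gsr are higher with both kinds of debris than with WT medium in both cell types, Gpx1 is lower, and Gpx4 in cDC1s stays between 40.3 and 50.9 CPM.

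Slc7a11, the transport subunit of system xc- (ENSMUSG00000027737, chr3:49846975-50398070 of GRCm39, minus strand), was measured in cDC1s at 362, 389.7 and 337 CPM in replicates 1, 2 and 3 with WT medium, at 910.5, 1009 and 942 CPM with BimS medium, and at 1070.0, 1100.1 and 912 CPM with RIPK3 medium. Both debris groups lay far above WT and overlapped with each other. The rise over WT was 1.39 on the log2 scale with BimS (SE 0.0704, 95% interval 1.24 to 1.55, a 2.63-fold difference) and 1.501 with RIPK3 (SE 0.0706, 1.35 to 1.65, 2.83-fold). In cDC2s it stood at 1014, 924 and 719 CPM with WT medium, at 1603, 1563 and 1332 CPM with BimS medium, and at 1347 and 1352 CPM in the pair of RIPK3 samples. The WT samples of cDC2s were spread widely, and replicate 3 was the lowest of them. The rise in cDC2s was 0.76 with BimS (SE 0.112, 0.52 to 1.00, 1.69-fold) and 0.60 with RIPK3 (SE 0.123, 0.34 to 0.86, 1.51-fold). The RIPK3 call in cDC2s was lost when either RIPK3 sample was left out, at an unmoved 0.60 in both cases. Ordered by mean, cDC2s with BimS (1499 ± 146 CPM, SD, n = 3) and RIPK3 (1349.6 ± 4.03, n = 2) came first and overlapped. Next were cDC1s with RIPK3 (1027 ± 101) and BimS (954 ± 50.5) and cDC2s with WT medium (886 ± 151), each overlapping its neighbor, and cDC1s with WT medium (363 ± 26.5) came last and apart.

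The partner Slc3a2, the heavy chain that carries SLC7A11 to the membrane, was called higher in all 4 comparisons, by 0.39 (adjusted p = 1.52e-08, edgeR) and 0.47 (adjusted p = 1.19e-10) in cDC1s and by 0.29 (adjusted p = 0.0184) and 0.42 (adjusted p = 0.00231) in cDC2s, for BimS and RIPK3. In cDC2s the BimS call was lost in 3 of 8 fits with 1 sample left out, without WT replicate 2 and without BimS replicates 2 or 3, and the RIPK3 call without RIPK3 replicate 2. Both calls in cDC2s were also lost with limma on log2(count + 1), and the BimS call with limma on the deposited values. Per kilobase of exon, the ratio of Slc7a11 to Slc3a2 was 0.190 ± 0.0159 (SD, n = 3) in cDC1s with WT medium, 0.382 ± 0.0266 with BimS and 0.388 ± 0.0454 with RIPK3. In cDC2s it was 0.325 ± 0.0702, 0.447 ± 0.0624 and, over the pair of samples, 0.366 ± 0.00701. The debris and WT groups did not overlap in this ratio in cDC1s and overlapped in cDC2s. Of the 8 genes tested in cDC1s that partner cystine uptake or supply cysteine, 1 was called higher with BimS and 2 with RIPK3, Slc3a2 and the neutral amino acid exchanger Slc1a4 (0.57, adjusted p = 5.07e-07), where 7.31% and 8.35% of all genes were called higher. In cDC2s Slc3a2 was the 1 call among 7 tested with either debris, against 3.8% and 3.93% of all genes called higher.

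Gclc, the catalytic subunit of the ligase (ENSMUSG00000032350, chr9:77661797-77701770, plus strand), was measured in cDC1s at 153, 169 and 174 CPM with WT medium, at 462, 405 and 462 CPM with BimS medium and at 424, 414 and 426 CPM with RIPK3 medium. In cDC2s the values were 110.5, 126 and 113 CPM with WT medium, 254, 268 and 289 CPM with BimS medium, and 224 and 222 CPM with RIPK3 medium. All debris samples exceeded all WT samples of either cell type, and among debris samples each cDC1 sample exceeded each cDC2 sample. The rise was 1.42 (SE 0.0540, 1.31 to 1.53, 2.68-fold) with BimS and 1.35 (SE 0.0540, 1.24 to 1.46, 2.54-fold) with RIPK3 in cDC1s. The rise in cDC2s was 1.22 (SE 0.0825, 1.04 to 1.39, 2.32-fold) and 0.93 (SE 0.0900, 0.74 to 1.12, 1.91-fold). In the order of levels, only cDC1s with BimS (443 ± 32.6 CPM) and with RIPK3 (421 ± 6.49) overlapped. Below them came cDC2s with BimS (270.2 ± 17.4), cDC2s with RIPK3 (223 ± 1.36), cDC1s with WT (166 ± 10.9) and cDC2s with WT (116 ± 8.16).

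Gclm, the modifier subunit (ENSMUSG00000028124, chr3:122039126-122065061, plus strand), whose promoter is printed above, had the largest estimated rise of the 7 genes in each of the 4 comparisons, though in cDC1s with BimS medium that of Gsr was within its interval. In cDC1s it was at 209, 234 and 230.4 CPM with WT medium, at 907, 842 and 888 CPM with BimS medium and at 1026, 978 and 1015 CPM with RIPK3 medium. In cDC2s it was at 286, 329 and 352 CPM with WT medium, at 824, 899 and 990.4 CPM with BimS medium, and at 933 and 915 CPM with RIPK3 medium. The cell types started apart, with cDC1s lower, and the debris groups of cDC2s overlapped with each other. In cDC1s the rise was 1.97 (SE 0.0497, 1.87 to 2.07, 3.92-fold) with BimS and 2.17 (SE 0.050, 2.06 to 2.27, 4.49-fold) with RIPK3. The rise in cDC2s was 1.49 (SE 0.0890, 1.30 to 1.67, 2.81-fold) and 1.51 (SE 0.0963, 1.31 to 1.71, 2.85-fold). In the order of group means, cDC1s with RIPK3 (1006 ± 25.1 CPM) were highest. They lay above cDC2s with RIPK3 (924 ± 12.7), the next group, and overlapped with cDC2s with BimS (905 ± 83.2), which in turn overlapped with cDC2s with RIPK3 and with cDC1s with BimS (879 ± 33.4). These were followed by cDC2s with WT (322 ± 33.6) and cDC1s with WT (224 ± 13.6), which did not.

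The ratio of modifier to catalytic subunit differed between the media. Per kilobase of exon, the ratio of Gclm to Gclc in cDC1s was 1.07 ± 0.0225 (SD, n = 3) with WT medium, 1.57 ± 0.0632 with BimS and 1.88 ± 0.0241 with RIPK3. In cDC2s it was 2.19 ± 0.239 (n = 3), 2.63 ± 0.0737 (n = 3) and 3.26 ± 0.0249 (n = 2). No pair of groups overlapped within a cell type. The ratio is of transcript levels, and depends on the exon length taken for each gene.

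Gss, the enzyme of the second step (ENSMUSG00000027610, chr2:155405096-155455505, minus strand), was the lowest of the 7 genes. In cDC1s it was measured at 11.3, 8.75 and 10.8 CPM with WT medium, at 16.2, 14.7 and 13.2 CPM with BimS medium and at 15.8, 15.3 and 19.2 CPM with RIPK3 medium. In cDC2s the values were 18.9, 20.8 and 23.6 CPM with WT medium, 42.0, 35.6 and 48.1 CPM with BimS medium, and 43.5 and 40.3 CPM with RIPK3 medium. Debris samples were above WT samples within each cell type, yet the cDC1 samples with debris stayed below or among the cDC2 samples with WT medium. The rise in cDC1s was 0.52 (SE 0.109, 0.29 to 0.74, 1.43-fold) with BimS and 0.70 (SE 0.109, 0.48 to 0.92, 1.63-fold) with RIPK3, and in cDC2s 0.99 (SE 0.113, 0.75 to 1.22, 1.98-fold) and 0.98 (SE 0.124, 0.72 to 1.24, 1.97-fold). Exons of Gss overlap those of Acss2 on the opposite strand, which averaged 230.0 reads per sample against 424.0 for Gss. Whether the counting used strand is not given in the sources used here, and without it the reads of both genes cannot be told apart where they overlap.

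Gsr, glutathione reductase (ENSMUSG00000031584, chr8:34142551-34188192, plus strand), was measured in cDC1s at 40.2, 40.7 and 38.6 CPM with WT medium, at 166, 139 and 158 CPM with BimS medium and at 157, 150.02 and 154 CPM with RIPK3 medium. In cDC2s the values were 167, 192 and 204 CPM with WT medium, 414, 431 and 501 CPM with BimS medium, and 397 and 405 CPM with RIPK3 medium. All cDC1 samples with debris lay below the lowest cDC2 sample with WT medium. In cDC1s the rise was 1.95 with BimS (SE 0.060, 1.83 to 2.07, 3.87-fold) and also 1.95 with RIPK3 (SE 0.060, 1.83 to 2.07, 3.86-fold). The rise in cDC2s was 1.26 (SE 0.0904, 1.07 to 1.44, 2.39-fold) and 1.09 (SE 0.0983, 0.88 to 1.29, 2.12-fold).

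Gpx1, the abundant cytosolic glutathione peroxidase (ENSMUSG00000063856, chr9:108216102-108217546, plus strand), moved the other way. In cDC1s it fell from 118, 102 and 111.6 CPM with WT medium to 81.7, 74.9 and 77.2 CPM with BimS medium and to 61.8, 63.6 and 72.7 CPM with RIPK3 medium. In cDC2s it fell from 116, 130.3 and 156 CPM to 74.0, 75.2 and 85.8 CPM with BimS, and to 65.7 and 72.0 CPM with RIPK3. Within each cell type the 3 media did not overlap, and RIPK3 was the lowest. The log2 fold change was -0.50 (SE 0.0617, -0.63 to -0.38, a 1.42-fold fall) for BimS and -0.74 (SE 0.0625, -0.87 to -0.62, 1.67-fold) for RIPK3 in cDC1s. For cDC2s it was -0.78 (SE 0.101, -0.99 to -0.57, 1.71-fold) and -0.97 (SE 0.116, -1.21 to -0.73, 1.96-fold).

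Gpx4, which reduces lipid hydroperoxides in membranes (ENSMUSG00000075706, chr10:79883000-79892273, plus strand), was the 1 gene not called in any comparison of debris with WT medium. In cDC1s it was at 46.4, 41.7 and 43.9 CPM with WT medium, at 49.7, 40.3 and 43.1 CPM with BimS medium and at 50.9, 46.5 and 50.8 CPM with RIPK3 medium. In cDC2s it was at 59.1, 66.1 and 81.7 CPM with WT medium, at 62.6, 65.7 and 76.4 CPM with BimS medium, and at 81.5 and 84.0 CPM with RIPK3 medium. The BimS samples overlapped with WT in both cell types, and the RIPK3 samples overlapped with WT in cDC2s and cleared the highest WT sample by a narrow margin in cDC1s. The log2 fold change for BimS was 0.01 (95% interval -0.13 to 0.15) in cDC1s and -0.02 (-0.24 to 0.21) in cDC2s. For RIPK3 it was 0.17 (0.03 to 0.31) and 0.26 (0.01 to 0.50). With the replicate number as a block, Gpx4 was called higher with RIPK3 in both cell types, by 0.17 (SE 0.057) and 0.37 (SE 0.062), in fits that called 10.3% and 10.0% of all genes higher. It was also called in cDC2s without WT replicate 3, by 0.39. Per kilobase of exon, the ratio of Gpx1 to Gpx4 went from 2.99 ± 0.0703 with WT medium to 2.10 ± 0.130 with BimS and 1.60 ± 0.134 with RIPK3 in cDC1s (SD, n = 3), and from 2.32 ± 0.0374 to 1.37 ± 0.0344 and 0.991 ± 0.0427 (n = 2) in cDC2s.

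**Figure D2:**
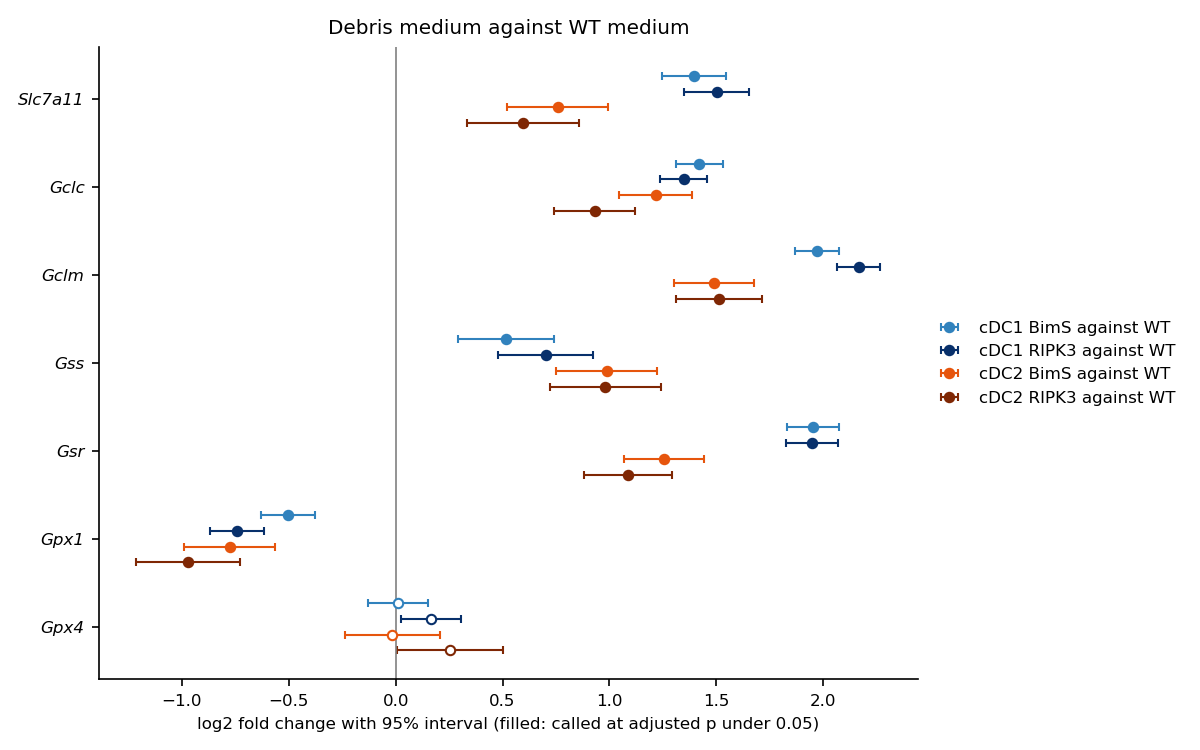
Log2 fold change of each gene against WT medium with its 95% interval (x axis), for both debris types in both cell types. Filled points were called at an adjusted p threshold of 0.05, open points were not. Gclm reaches 2.17 in cDC1s with RIPK3, Gpx1 lies at -0.97 to -0.50, and the open points of Gpx4 lie at -0.02 to 0.26.

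Without replicate 3 of cDC2s with WT medium, the sample that stood apart, the same 6 genes were called in cDC2s for both debris types, and Gpx4 for RIPK3 besides, where 7.58% and 9.74% of all genes were called for BimS and RIPK3. Slc7a11 then differed by 0.62 with BimS and 0.46 with RIPK3, Gclc by 1.19 and 0.90, Gclm by 1.55 and 1.58, Gss by 1.07 with either, Gsr by 1.32 and 1.15 and Gpx1 by -0.66 and -0.85. With the replicate number as a block and all samples kept, RIPK3 differed from WT in cDC2s by 0.50 for Slc7a11 and 0.94 for Gclc. For Gclm it was 1.58, for Gss 1.08, for Gsr 1.16 and for Gpx1 -0.87.

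Necroptotic and apoptotic debris were compared with each other within each cell type. In cDC1s, where 4.15% of the genes tested were called, 2 of the 7 genes were called. Gclm was higher with RIPK3 than with BimS by 0.19 (SE 0.0474, 0.10 to 0.29) and Gpx1 was lower by -0.24 on the log2 scale (SE 0.0633, -0.37 to -0.11), in both cases without overlap. The intervals of the other five were -0.04 to 0.25 for Slc7a11, -0.18 to 0.03 for Gclc, -0.03 to 0.40 for Gss, -0.12 to 0.11 for Gsr and 0.01 to 0.30 for Gpx4. Both calls were lost in a single fit of all samples and with limma on log2(count + 1), and that of Gpx1 with DESeq2 as well. The call of Gclm was lost without BimS replicate 2 (0.17) and that of Gpx1 without BimS replicates 1 (-0.20) or 3 (-0.25) or RIPK3 replicates 1 (-0.19) or 2 (-0.21). Slc7a11 was called without RIPK3 replicate 3, at 0.19, and Gpx4 without BimS replicate 1, at 0.25.

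In cDC2s none of the 7 genes was called by edgeR between RIPK3 and BimS, where 0.379% of genes were called and 1653 had an unadjusted p under the same threshold. DESeq2 called none of the 7 either. The samples did not overlap for Gclc, Gsr and Gpx1, which were lower with RIPK3, and for Gpx4, which was higher. With 2 samples against 3, and no share of all genes without overlap at hand, nothing is read from this. The differences were -0.16 for Slc7a11 (-0.43 to 0.11), -0.29 for Gclc (-0.48 to -0.09), 0.02 for Gclm (-0.18 to 0.23), -0.01 for Gss (-0.26 to 0.25), -0.17 for Gsr (-0.38 to 0.04), -0.19 for Gpx1 (-0.43 to 0.05) and 0.27 for Gpx4 (0.02 to 0.52). With the replicate number as a block, 3 were called: Slc7a11 at -0.27 (SE 0.045), Gclc at -0.27 (SE 0.051) and Gpx4 at 0.38 (SE 0.061). In that fit 14.3% of all genes were called. In the same fit Gsr and Gpx1 were at -0.10 each, and neither was called. The RIPK3 group of cDC2s has only 2 of the replicate numbers.

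With WT medium, all 7 genes were called between cDC1s and cDC2s in a fit of all samples, as were 46.2% of all genes tested. Gclc was higher in cDC1s, by 0.51 (SE 0.0699, 0.37 to 0.65), and 22.5% of all genes were. The other six were lower in cDC1s, and 23.7% of all genes were. Gsr differed most, by -2.24 (SE 0.0828, -2.41 to -2.07), a 4.71-fold lower level in cDC1s. It was followed by Slc7a11 at -1.29 (-1.51 to -1.06), Gss at -1.03 (-1.29 to -0.78), Gpx4 at -0.65 (-0.85 to -0.45), Gclm at -0.52 (-0.67 to -0.37) and Gpx1 at -0.28 (-0.46 to -0.10). The samples overlapped for Gpx1 alone, whose call was lost without cDC1 WT replicate 2 (-0.22), without cDC2 WT replicate 3 (-0.15) and with limma on log2(count + 1) (-0.11). The sorted cells held the markers of their labels: 8 listed cDC1 markers summed to 1397 to 1725 CPM in cDC1s and 98.8 to 132 CPM in cDC2s, and 8 cDC2 markers to 2.63 to 4.13 CPM in cDC1s and 287 to 375 CPM in cDC2s.

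Levels were compared between genes per kilobase of exon. In cDC1s with WT medium, Gpx1 led at 76.4 CPM per kb, followed by Gclm (28.2), Gclc (26.4), Gpx4 (25.5) and Slc7a11 (23.4), and then by Gsr (5.74) and Gss (1.49). With RIPK3 medium the order was Gclm (126), Gclc (67.2), Slc7a11 (66.2), Gpx1 (45.7), Gpx4 (28.7), Gsr (22.2) and Gss (2.43). Gpx1 was thus the most abundant of these transcripts with WT medium, and stood behind Gclm, Gclc and Slc7a11 with RIPK3 medium. In cDC2s Gpx1 (92.8 CPM per kb) and Slc7a11 (57.1) led with WT medium, and Gclm (116) and Slc7a11 (86.9) with RIPK3 medium. With the longest transcript as the length, the order among Slc7a11 (39.3), Gclc (35.7), Gclm (35.3) and Gpx4 (44.2) in cDC1s with WT medium changed, and Gpx1 (103) and Gss (3.15) kept the ends. By that length, with RIPK3 medium Slc7a11 (111) stood above Gclc (90.8) in cDC1s, and Slc7a11 (146.3) and Gclm (145.5) were nearly level in cDC2s.

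The debris response of each gene was compared between the cell types as an interaction, the difference of both log2 fold changes, cDC1s minus cDC2s. For BimS, 0.859% of all genes were called and 0.555% were called with the larger value in cDC1s. Of the 7 genes, Gclm (0.48, SE 0.102, 0.27 to 0.69) and Gsr (0.70, SE 0.111, 0.47 to 0.92) were called, both with the larger rise in cDC1s. Slc7a11 was just short of the threshold at 0.64 (SE 0.147, 0.33 to 0.95), and the others were at 0.20 for Gclc (0.0017 to 0.40), -0.47 for Gss (-0.82 to -0.13), 0.27 for Gpx1 (0.01 to 0.53) and 0.03 for Gpx4 (-0.26 to 0.31). The call of Gclm was lost without cDC1 WT replicate 1 (0.42), cDC1 BimS replicate 1 (0.45) or cDC2 BimS replicate 1 (0.41), and with limma on log2(count + 1) (0.52). Slc7a11 was called in 6 of the 9 other settings, which were DESeq2 (0.62), filterByExpr (0.63), no filter (0.63), limma on the deposited values (0.66), the replicate block (0.63) and the block within each cell type, which called between 0.943% and 5.03% of all genes, and also without cDC2 WT replicate 3 (0.76) and without cDC1 RIPK3 replicate 3 (0.63).

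For RIPK3, 1.14% of all genes were called and 0.66% were called with the larger value in cDC1s. Slc7a11 (0.89, SE 0.157, 0.56 to 1.22), Gclc (0.41, SE 0.104, 0.19 to 0.62), Gclm (0.64, SE 0.109, 0.42 to 0.87) and Gsr (0.85, SE 0.118, 0.61 to 1.10) were called with the larger rise in cDC1s. Gss (-0.29, -0.65 to 0.08), Gpx1 (0.22, -0.06 to 0.50) and Gpx4 (-0.10, -0.40 to 0.20) were not. The call of Gclc held in 5 of 17 fits with 1 sample left out, where its value ranged from 0.35 to 0.44, and was lost with RLE size factors (0.39) and with limma on log2(count + 1) (0.47). For RIPK3 against BimS none of the 7 genes was called by edgeR, with 0.0314% of all genes called and 972 at an unadjusted p under the same threshold, and DESeq2 called none. With the replicate number as a block within each cell type, an alternative chosen after seeing the data, Slc7a11 (0.63), Gss (-0.47) and Gpx1 (0.27) were called for BimS beside Gclm and Gsr, and Slc7a11 (0.36) for RIPK3 against BimS, in fits that called 5.03% and 2.37% of all genes.

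**Figure D3:**
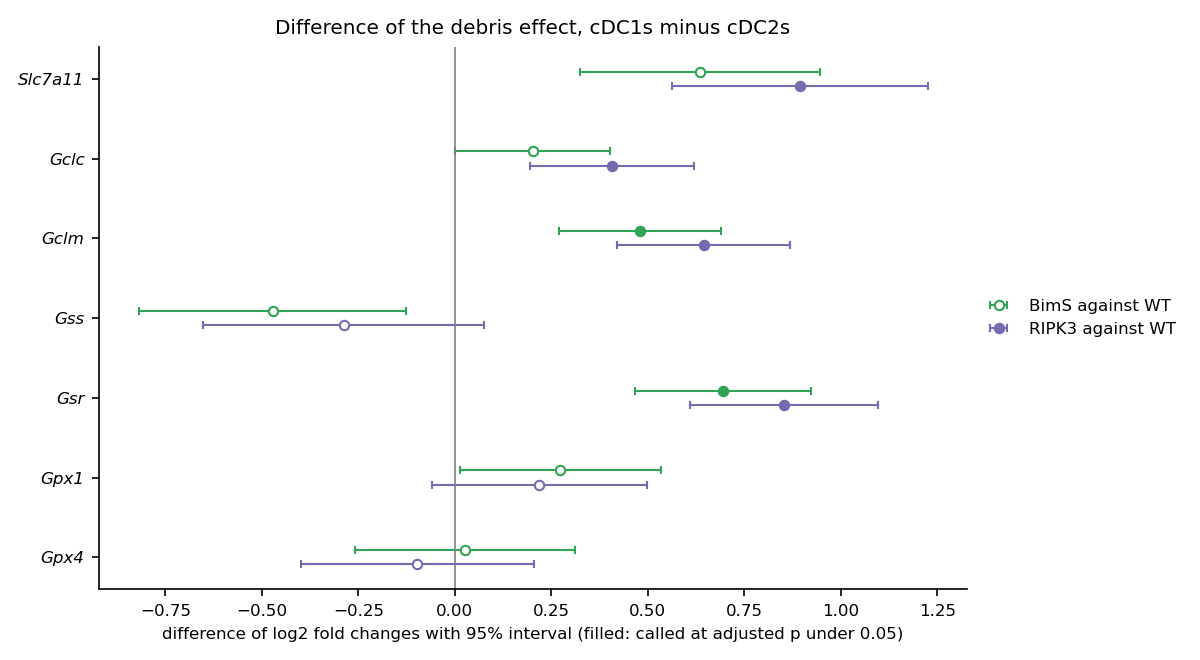
Difference between the cell types of the log2 fold change against WT medium, cDC1s minus cDC2s, with its 95% interval (x axis), for BimS and RIPK3. Filled points were called. Slc7a11, Gclc, Gclm and Gsr lie right of 0 with both debris types, up to 0.89, Gss lies left of 0 at -0.47 and -0.29, and Gpx4 lies near 0.

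Across the 17 samples the genes most like each member in log2 CPM, among 7782 genes, were listed by Pearson's r as a description. The samples share cell type and medium, and how much of the likeness these account for was not tested. For Slc7a11 the closest was Ube2o (0.979), for Gclc Cat, which encodes catalase (0.986), for Gclm Mafg (0.985), for Gss Srsf3 (0.986), for Gsr Nqo1 (0.992), for Gpx1 Fh1 (0.947) and for Gpx4 Nfkbib (0.988). Sqstm1 followed for Gclc (0.983) and Txnrd1 came after Lrp8 for Gsr (0.990). Among the 9 cDC1 samples Gclc and Gsr had an r of 0.995 and Gclm and Gsr also 0.995, and among the 8 cDC2 samples Gclm and Gsr had 0.991. Gclc and Gss correlated at 0.850 within cDC1s and 0.944 within cDC2s but at -0.019 over all samples, where Gclc was higher in cDC1s and Gss in cDC2s. Gpx4 reached 0.645 with Gss in cDC1s and at most 0.431 with any other member in cDC2s.

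Other genes of the pathway were taken from lists chosen with results of these data known. Of 20 further NRF2 target genes, all tested, 18 were called higher in cDC1s with BimS and 18 with RIPK3, and 19 and 18 in cDC2s, with none lower. The share of all genes called higher was 7.31% and 8.35% in cDC1s and 3.8% and 3.93% in cDC2s, and that called lower 5.89%, 8.18%, 3.21% and 3.28%. The median log2 fold change of the list was 1.52 and 1.64 in cDC1s and 1.11 and 1.07 in cDC2s, against 0.0017 and -0.0056, and -0.019 and -0.022, over all genes. Hmox1, heme oxygenase, went from 619 ± 59.3 CPM with WT medium to 5141 ± 98.4 with BimS and 6709 ± 254 with RIPK3 in cDC1s, by 3.05 and 3.44 on the log2 scale (adjusted p = 6.79e-27 and 3.55e-28, edgeR). In cDC2s it went from 152 ± 33.9 to 1540 ± 146 and 2671 ± 90.2 CPM, by 3.34 and 4.13 (adjusted p = 1.77e-07 and 5.30e-08). Nqo1, a quinone reductase, rose by 2.82 and 2.92 in cDC1s (adjusted p = 6.70e-12 and 3.14e-12) and by 1.63 and 1.52 in cDC2s (adjusted p = 1.15e-05 and 3.41e-05). Osgin1 rose by 2.48 and 2.44 in cDC1s (adjusted p = 7.08e-20 and 9.36e-20) and by 1.14 and 1.03 in cDC2s (adjusted p = 2.45e-05 and 0.000181).

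**Figure D4:**
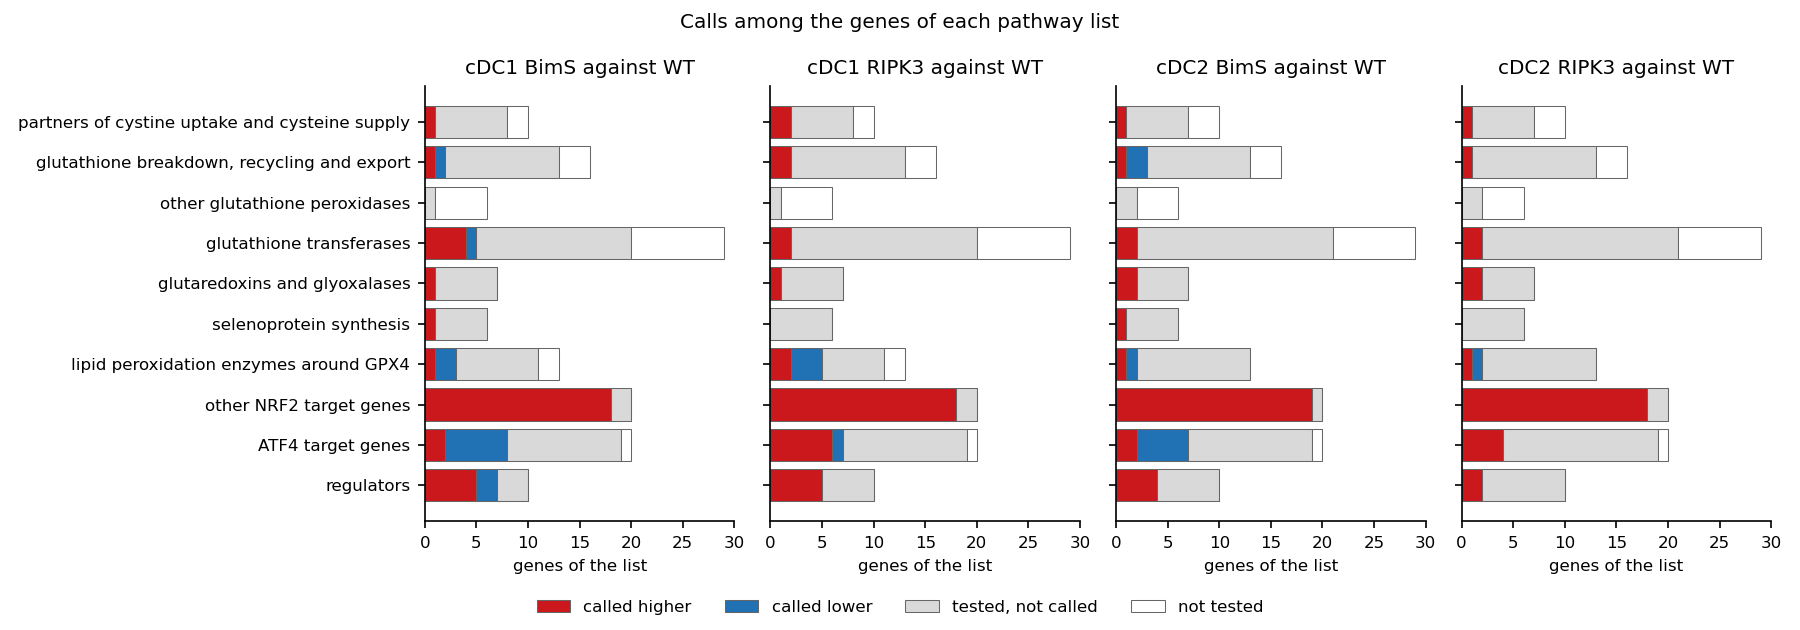
Number of genes of each pathway list (x axis) that were called higher (red), called lower (blue), tested and not called (gray) or not tested (white) in the 4 comparisons of debris with WT medium. Of 20 further NRF2 target genes 18 or 19 were called higher in each, and most glutathione transferases and peroxidases were not called or not tested.

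Of the 13 genes tested for glutathione breakdown, recycling and export, Abcc1, an exporter of glutathione and its conjugates, was called higher in all 4 comparisons. Beside it Chac2, which like Chac1 degrades cytosolic glutathione, was called higher with RIPK3 in cDC1s, where WT averaged 4.89 ± 0.554 CPM and RIPK3 6.79 ± 0.907 CPM. In cDC1s 1 gene of the list was called lower with BimS and 0 with RIPK3, and in cDC2s 2 and 0. Of all genes, 5.89%, 8.18%, 3.21% and 3.28% were called lower, and 7.31%, 8.35%, 3.8% and 3.93% higher. Abcc1 rose by 1.47 and 1.45 in cDC1s (adjusted p = 1.04e-22 and 1.26e-22) and by 1.02 and 0.84 in cDC2s (adjusted p = 6.48e-08 and 1.94e-06, edgeR). Chac1, which degrades cytosolic glutathione, fell with BimS, by 0.52 on the log2 scale in cDC1s (adjusted p = 3.30e-05) and by 0.67 in cDC2s (adjusted p = 0.00273). With RIPK3 its log2 fold change was -0.03 (adjusted p = 0.876) and 0.13 (adjusted p = 0.717), and it was higher with RIPK3 than with BimS by 0.49 in cDC1s (adjusted p = 0.000583) and 0.81 in cDC2s (adjusted p = 0.0150). The latter call was lost without cDC2 BimS replicate 1 or without either cDC2 RIPK3 sample. Slc25a39, the mitochondrial importer of glutathione, was called lower with BimS in cDC2s at the edge of the threshold (-0.38, adjusted p = 0.0464). This call was kept in 1 of 8 fits with 1 sample left out and in 4 of 9 other settings.

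Of the glutathione transferases, 20 were tested in cDC1s and 21 in cDC2s. In cDC1s 4 were called higher with BimS, Gstm1, Gstm4, Gstp1 and Hpgds, and 1, Gstt2, lower, while 2 were called higher with RIPK3. In cDC2s 2 were called higher with each. Of all genes 7.31% and 8.35% were called higher in cDC1s, near the 2 of 20 with RIPK3, and 3.8% and 3.93% in cDC2s. The share called lower with BimS in cDC1s was 5.89%, near the 1 of 20. The list medians were 0.085, 0.097, 0.066 and 0.085. Of the other glutathione peroxidases, 1 of 6 was tested in cDC1s and 2 in cDC2s, and none was called by edgeR. Esd, which hydrolyzes S-formylglutathione, was called higher in all 4 comparisons, by 1.13 and 1.33 in cDC1s (adjusted p = 4.45e-19 and 3.62e-21) and by 0.69 and 0.74 in cDC2s (adjusted p = 4.80e-05 and 4.82e-05). Glrx, glutaredoxin, was called higher in cDC2s alone, by 0.74 with BimS (adjusted p = 0.00416) and 0.97 with RIPK3 (adjusted p = 0.000726), against 0.26 and 0.16 in cDC1s (adjusted p = 0.139 and 0.419). The interaction of Glrx was called for RIPK3 (-0.81, adjusted p = 0.0269), a call kept in 10 of 17 fits with 1 sample left out, and not for BimS (-0.48, adjusted p = 0.355).

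Of the lipid enzymes around GPX4, Scd1, the desaturase that makes monounsaturated fatty acids, fell in all 4 comparisons, by 1.26 and 1.42 on the log2 scale in cDC1s (adjusted p = 8.64e-18 and 3.75e-19) and by 1.30 and 1.38 in cDC2s (adjusted p = 1.17e-06 and 3.23e-06, edgeR). Acsl4, which activates polyunsaturated fatty acids, was called higher in cDC1s, by 0.29 and 0.42 (adjusted p = 0.000133 and 1.76e-07), and differed by 0.14 and 0.23 in cDC2s (adjusted p = 0.611 and 0.404), the first of these being called with the replicate block (0.15). Its BimS call in cDC1s was lost with limma on log2(count + 1) and in 1 fit of all samples. Gch1, the first enzyme of tetrahydrobiopterin synthesis, was called higher in cDC1s with RIPK3, by 0.34 (adjusted p = 0.000662), and differed by 0.08 with BimS (adjusted p = 0.633). In cDC2s it differed by 0.0036 and 0.25 (adjusted p = 0.988 and 0.197), the latter being called with the replicate block (0.30). The call of Gch1 in cDC1s with RIPK3 was lost with limma on log2(count + 1). In all, 1 of 11 tested genes was called higher and 2 lower with BimS in cDC1s, 2 and 3 with RIPK3, and 1 and 1 of 13 with either debris in cDC2s. Over all genes 7.31% were called higher and 5.89% lower with BimS and 8.35% and 8.18% with RIPK3 in cDC1s, and 3.8% and 3.21%, and 3.93% and 3.28%, in cDC2s. Of 6 genes of selenoprotein synthesis, which GPX1 and GPX4 require, Secisbp2 alone was called, with BimS, by 0.31 in cDC1s (adjusted p = 0.00124) and 0.34 in cDC2s (adjusted p = 0.0453). The call in cDC2s was kept in 2 of 8 fits with 1 sample left out and in 6 of 9 other settings. That in cDC1s was lost with limma on log2(count + 1).

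Among 10 regulators, 5 were called higher in cDC1s with either debris, Bach1, Keap1, Maff, Mafg and Mafk, and Atf4 and Nfe2l1 were called lower with BimS. In cDC2s Bach1, Keap1, Maff and Mafg were called higher with BimS, and Maff and Mafg with RIPK3. The shares of all genes called higher were 7.31% and 8.35% in cDC1s and 3.8% and 3.93% in cDC2s. With BimS in cDC1s 5.89% of all genes were called lower. Mafg, a small MAF partner of NRF2 and BACH1, rose by 1.20 and 1.30 in cDC1s (adjusted p = 2.25e-20 and 1.94e-21) and by 0.97 and 1.03 in cDC2s (adjusted p = 3.91e-08 and 5.28e-08). Maff rose by 0.47 and 0.54 (adjusted p = 8.78e-08 and 4.63e-09) and by 0.45 and 0.74 (adjusted p = 0.00163 and 1.73e-05). Bach1, the repressor that competes with NRF2, rose by 0.70 and 0.62 in cDC1s (adjusted p = 1.33e-10 and 1.47e-09). In cDC2s it differed by 0.47 with BimS (adjusted p = 0.0101), a call lost without BimS replicate 2, and by 0.33 with RIPK3 (adjusted p = 0.123), which was called with the replicate block (0.23), without a filter and in 1 fit of all samples. Nfe2l2, which encodes NRF2, was not called and averaged 481 ± 5.99, 475 ± 8.85 and 484 ± 12.3 CPM in cDC1s with WT, BimS and RIPK3 medium, and 293 ± 0.330, 313 ± 10.9 and 347 ± 7.82 CPM in cDC2s.

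Markers of other cells were measured beside these results. The adherent tumor cell list, 18 of 20 genes in the table, summed in cDC1s to 13.7 to 15.5 CPM with WT, 15.8 to 18.9 CPM with BimS and 17.2 to 19.7 CPM with RIPK3 medium, so that both debris groups lay above WT. In cDC2s it summed to 81.3 to 96.1 CPM with WT, 159 to 199 CPM with BimS and 157 to 173 CPM with RIPK3 medium, of which Thbs1 made up 49.2 ± 2.79, 144 ± 15.5 and 138 ± 8.08 CPM. Of the 13 genes of this list tested in cDC2s, Thbs1 alone was called, higher with both kinds of debris. Of the 16 tested in cDC1s, Cald1 alone was called, higher with RIPK3, at 0.161 ± 0.0544, 0.350 ± 0.0642 and 0.570 ± 0.289 CPM with WT, BimS and RIPK3 medium. Over all genes 7.31% and 8.35% were called higher with BimS and RIPK3 in cDC1s, and 3.8% and 3.93% in cDC2s. Called lower were 5.89% and 8.18%, and 3.21% and 3.28%. Of the epithelial genes of the list, Krt8 had 3 reads or fewer in every sample and Krt7 in every cDC2 sample. In cDC1s Krt7 averaged 0.166, 0.213 and 0.156 CPM and Krt18 0.9752, 0.727 and 0.768 CPM with WT, BimS and RIPK3 medium, and in cDC2s Cdh1 averaged 32.7, 25.6 and 20.4 CPM. Over the tested genes of the whole list the median log2 fold change with BimS and RIPK3 was 0.29 and 0.08 in cDC1s. In cDC2s this median was -0.105 and 0.025. The 12 macrophage markers fell in sum from 62.2 to 66.4 CPM with WT medium to 37.5 to 45.9 with BimS and 28.2 to 31.5 with RIPK3 in cDC1s, and from 66.8 to 70.4 to 52.7 to 58.6 and 42.0 to 46.1 in cDC2s. Timd4 made up most of this sum in cDC1s, at 56.3 ± 2.01, 37.0 ± 4.39 and 23.9 ± 2.82 CPM. It was called lower in all 4 comparisons with WT medium. C1qc was called lower in cDC1s with BimS, and Mrc1 in cDC1s with BimS and in cDC2s with RIPK3. The 8 T and NK cell markers summed in cDC1s to 1.27 to 1.84, 2.22 to 2.597 and 2.36 to 3.03 CPM with WT, BimS and RIPK3 medium, and Cd247 of this list, at 1.08 ± 0.343, 2.06 ± 0.182 and 2.49 ± 0.268 CPM, was called higher with both. In cDC2s they summed to 1.22 to 2.13 CPM over the 3 media, with Cd3g called lower with BimS. The 6 plasmacytoid dendritic cell markers summed in cDC1s to 40.5 to 47.7, 37.7 to 40.6 and 35.0 to 44.3 CPM, nearly all of it Tcf4, which was called lower with both kinds of debris, and in cDC2s to 173 to 190, 173 to 186 and 159 to 160.2 CPM. Markers of B cells, neutrophils and erythroid cells summed to no more than 1.68, 2.97 and 1.49 CPM in any sample. Of the erythroid list, Hbb-bt was called higher in cDC1s with BimS. The part of any of these cell types in the results on the 7 genes was not tested. Ripk3 and Bcl2l11, the genes that the tumor lines overexpress, were at 24.2 ± 2.15, 26.8 ± 1.65 and 29.3 ± 3.16 CPM and at 1319 ± 33.3, 1346 ± 30.2 and 1114 ± 64.2 CPM in cDC1s with WT, BimS and RIPK3 medium. In cDC2s Ripk3 was at 26.7 ± 4.25, 36.2 ± 7.02 and 40.0 ± 6.26 CPM and Bcl2l11 at 257 ± 18.4, 289 ± 11.6 and 279 ± 7.65 CPM. Ripk3 was called higher with RIPK3 medium in cDC1s (0.28, adjusted p = 0.0145) and in cDC2s (0.57, adjusted p = 0.0453), calls that held in 6 of 9 and 4 of 8 fits with 1 sample left out. Of the 9 other settings, 6 kept the call in cDC1s and 7 that in cDC2s. With BimS medium Ripk3 differed from WT by 0.15 in cDC1s and 0.44 in cDC2s. Neither was called by edgeR, and 0 and 4 of the 9 other settings called them. Bcl2l11 was called lower with RIPK3 medium in cDC1s, against WT (-0.24, adjusted p = 0.00011) and against BimS (-0.27, adjusted p = 0.000184), and these calls held in all 9 fits with 1 sample left out. The reads counted on genes numbered 16.1 to 21.6 M per sample.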

How the data were processed

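The deposited count table holds reads per gene for the 17 samples. Before deposit the authors had removed adapters with SeqPurge, mapped to GRCm39 with STAR 2.7.10a on Ensembl models and summed reads per gene with gensum, and these counts are not normalized. The deposited log2 table was made by the authors from the same counts, scaled to a total of 10 M per sample, and served as an alternative. Of 31239 lines, 148 without a gene identifier (0.0258% to 0.0366% of a sample's counts) were left out, and 30854 of 31091 identifiers were matched to GENCODE M39 for symbols, coordinates and exon lengths.

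A gene entered a fit when 50% or more of its samples had a nonzero count. The test was edgeR's quasi-likelihood test (version 4.0.16 under R 4.3.3, robust, TMM), with Benjamini-Hochberg adjustment over all genes tested and a threshold of 0.05. The cDC1s and the cDC2s were fitted separately, and all 17 samples together for cDC1s against cDC2s with WT medium and for the interactions. Standard errors are the log2 fold change divided by the square root of F. Levels are CPM (mean ± SD), and likeness used log2 CPM with a prior count of 2. The fits were tested on simulated data. At 16.1 to 21.6 M reads per sample, replicate spread rather than counting error set most of the precision. The reads carry no molecular identifiers.

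The 7 genes, the pathway and marker lists and the tests were chosen with earlier results of these data known. Beyond the 7, genes were named by a rule: the 3 largest absolute changes of each list among genes called against WT medium in any of the 4 comparisons with a mean log2 CPM of 3 or more, the 3 genes most like each of the 7, and Ripk3 and Bcl2l11. Thbs1, Cald1, Timd4, C1qc, Mrc1, Hbb-bt, Krt8, Krt7, Krt18, Cdh1, Chac2, Cd247, Cd3g, Tcf4, Nfe2l2 and genes that only fill a count of calls stand outside the rule.

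Replicate numbers come from the sample labels. Whether they pair the samples was checked by correlating deviations from group means. Within cDC1s 9 of 9 pairs of the same number and within cDC2s 7 of 7 exceeded 0.1 (medians 0.324 and 0.427). Of pairs of different numbers 1 of 18 and 3 of 14 did. The block is therefore given where it changed a call against WT medium that is printed with its value. It is also given for the 7 genes with RIPK3 against WT in cDC2s. Across cell types 19 of 24 pairs of the same number exceeded 0.1, against 5 of 48 of different numbers (medians 0.210 and -0.101). The fits across cell types still took the samples as unpaired, with the replicate number as a block as an alternative.

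The alternatives were DESeq2 1.42.0, RLE size factors, filterByExpr, no filter, limma 3.58.1 on log2(count + 1), on log2 CPM and on the deposited log2 values, the replicate number as a block, 1 fit of all samples, the longest transcript as the length, and each sample left out in turn. Promoter sequences are RefSeq entries of GRCm38.p6, and their coordinates are of that build alone. Columns with the authors' own comparisons were not used.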

Additional observations from a re-analysis of the deposited data

Results flagged for a closer look

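The debris effect differed between cDC1s and cDC2s, by a test of the interaction, for 6 contrasts of the 7 genes. Values are cDC1s minus cDC2s on the log2 scale. Against WT medium, Slc7a11 differed by 0.89 with RIPK3 and Gclc by 0.41 with RIPK3, Gclm by 0.48 with BimS and 0.64 with RIPK3, and Gsr by 0.70 and 0.85. The same 7 genes were chosen with these values in view, so they are a description.

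Other named genes differed in the same way. The exporter Abcc1 rose more in cDC1s, by 0.45 with BimS and 0.59 with RIPK3, Nqo1 by 1.18 and 1.39, Osgin1 by 1.34 and 1.40, Atf3 by 0.85 and 0.67, and Esd by 0.58 with RIPK3. The effect was lower in cDC1s for Glrx with RIPK3 (-0.81), for Ddit4 with BimS (-0.72) and for Bcl2l11 with RIPK3 (-0.36). The call of Nqo1 for BimS was kept in 8 of 17 fits with 1 sample left out and that of Bcl2l11 in 6 of 17. No group had the 4 samples needed to look for single outlying values.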

How the results depend on the processing

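In the 4 comparisons of debris with WT medium, the 6 genes called by edgeR were called under every alternative except Slc7a11 for RIPK3 in cDC2s without either RIPK3 sample, and no called value of the 7 genes changed sign. Over all settings, 1404 values of the 7 genes kept their side of the threshold, 19 were called besides and 33 lost their call. Of the NRF2 targets 18 to 19, 18, 17 to 19 and 16 to 18 were called higher with 1 sample left out, and with limma on log2(count + 1) 18, 18, 17 and 14. Counts over all genes moved more. With limma on log2(count + 1), 1510 genes were called for BimS in cDC1s (2576 in edgeR), 403 for RIPK3 against BimS in cDC1s (810) and 148 in cDC2s (73), and 67, 109 and 3 for the interactions of BimS, RIPK3 and RIPK3 against BimS (164, 217 and 6), the last also 3 with limma on log2 CPM. Without a filter, 300 were called for RIPK3 against BimS in cDC2s and 315, 371 and 25 for the interactions, with filterByExpr 46 in cDC2s, and with DESeq2 118 in cDC2s and 13 in the last interaction. A single fit of all samples gave 265 for RIPK3 against BimS in cDC1s and 244 in cDC2s, and 2147 and 2108 for BimS and RIPK3 in cDC2s (1349 and 1387). With the replicate block, 1721 were called for RIPK3 against BimS in cDC1s, 4103, 4124 and 2755 for the 3 comparisons of cDC2s, and 442, 449 and 27 for the interactions. With the block within each cell type, chosen after seeing the data, the interactions had 959, 965 and 453. Of the 7 genes, RIPK3 against BimS in cDC1s had 1 call with DESeq2 and 0 with limma on log2(count + 1) or a single fit, and in cDC2s 3 with the replicate block. The BimS interaction had 1 with limma on log2(count + 1) and 5 with the block within cell types, and the last interaction 1. The causes were not tested. Leaving out 1 sample gave 489 to 1027 calls for RIPK3 against BimS in cDC1s (lowest without BimS replicate 3), 783 to 1504 for BimS in cDC2s (lowest without WT replicate 2), 622 to 1819 for RIPK3 in cDC2s (lowest without RIPK3 replicate 2) and 0 to 214 for RIPK3 against BimS there (lowest without RIPK3 replicate 2, highest without WT replicate 3). Counts also moved by over 1.5 times for BimS in cDC2s without BimS replicates 1 (896) or 2 (878), and for RIPK3 in cDC2s without WT replicate 2 (915) or RIPK3 replicate 1 (658). The interactions ranged over 93 to 234 (lowest without cDC1 WT replicate 1, then 100 and 104 without cDC1 BimS replicates 3 and 1), 111 to 258 (lowest without cDC2 RIPK3 replicate 2) and 0 to 10 (lowest without cDC2 RIPK3 replicate 2). For the 7 genes the ranges were 1 to 3 calls for RIPK3 against BimS in cDC1s, 5 to 7 for RIPK3 in cDC2s, 1 to 3 and 3 to 4 for the BimS and RIPK3 interactions. The balance of calls moved too: with limma on the deposited values, which are scaled by total counts, 36.5% and 31.2% of calls in cDC1s and 31.8% and 33.0% in cDC2s were higher with BimS and RIPK3, against 55.4%, 50.5%, 54.3% and 54.5% in edgeR and 56.5%, 50.9%, 57.3% and 55.2% with limma on log2 CPM, and the median gene shifted by -0.10 in both cDC2 comparisons. With limma on log2(count + 1) the shares were 27.9% for RIPK3 in cDC1s, 42.1% and 22.8% in cDC2s, and 14.4% (46.7%) and 11.5% (42.5%) for RIPK3 against BimS in cDC1s and cDC2s, 64.3% (48.7%) for cDC1s against cDC2s and 83.6% (64.6%) and 81.7% (58.1%) for the interactions, and the median gene shifted by -0.12 and -0.17 for RIPK3 in cDC1s and cDC2s. With 2 samples, the cDC2 RIPK3 group limits what could be called against it.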

Other observations

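ATF4 is the transcription factor of the amino acid response. Of its 19 target genes tested in cDC1s, 2 were called higher and 6 lower with BimS, where 7.31% of all genes were called higher and 5.89% lower. With RIPK3 6 were called higher and 1 lower, against 8.35% and 8.18% of all genes. For RIPK3 against BimS 9 were called higher and 1 lower, where 4.15% of all genes were called, and the list median was 0.23 against -0.0044 over all genes. In cDC2s 2 were called higher and 5 lower with BimS (3.8% and 3.21% of all genes), 4 and 0 with RIPK3 (3.93% and 3.28%), and 2 and 0 for RIPK3 against BimS (0.379% called). Atf3, a stress-induced repressor, rose in cDC1s by 0.57 with BimS and 1.15 with RIPK3 (adjusted p = 3.05e-10 and 1.28e-18, edgeR), and Ddit4, an inhibitor of mTORC1 signaling, by 0.75 with RIPK3 (adjusted p = 1.26e-06) against -0.08 with BimS (adjusted p = 0.792). In cDC2s Ddit4 rose by 0.65 and 1.32 (adjusted p = 0.000268 and 1.34e-07). Atf3 differed there by -0.29 with BimS (adjusted p = 0.206), called lower with the replicate block (-0.29), and was called higher with RIPK3 (0.48, adjusted p = 0.0307), a call kept in 4 of 8 fits with 1 sample left out. Cebpb was called higher in all 4 comparisons, by 1.36 and 1.75 in cDC1s (adjusted p = 0.00172 and 0.000323) and by 1.48 and 1.84 in cDC2s (adjusted p = 0.0115 and 0.00578), the third of these being lost without cDC2 WT replicate 3. Chac1, the glutathione-degrading enzyme that ATF4 also controls, was called lower with BimS in both cell types, and so were Ddit3, Nupr1, Pck2, Sesn2 and Slc7a5. With RIPK3 against WT in cDC1s, Sesn2 was called higher and Nupr1 lower. Between RIPK3 and BimS, Chac1 was called higher with RIPK3 in both cell types, Ddit3, Pck2 and Sesn2 in cDC1s, and Nupr1 and Slc7a5 in neither. Slc7a11 was called higher with both kinds of debris.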
